A study of Schizosaccharomyces pombe with 21 samples.

Results

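The small nucleolar RNA (snoRNA) genes of the fission yeast Schizosaccharomyces pombe were followed in polyA-selected RNA through phosphate starvation. They were taken as all gene identifiers with the prefix SPSNORNA in the count tables of the wild type and of the HASX mutant, which gave 53 of 6988 genes. Of these, 39 held at least 10 counts summed over the 21 libraries and were kept, and 14 held fewer. Expression did not enter the choice beyond that minimum. A low-count filter then left 33 of the 39 for testing.

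The 21 libraries form 7 groups with 3 replicates in each. The wild type (h-, strain Sp1) was sampled in log phase in phosphate-replete ePMGT medium (0 h) and 1, 2 and 4 h after transfer to ePMGT without phosphate. HASX (h-, strain BS1453) was sampled after 1, 2 and 4 h without phosphate. It carries asp1-H397A::natMX and 3 deletions, of aps1 (aps1∆::kanMX), of siw14 (siw14∆::hygMX) and of spx1 (spx1∆::ura4MX). The asp1 allele removes the pyrophosphatase activity of a bifunctional enzyme that also makes inositol pyrophosphates, aps1 and siw14 encode other inositol pyrophosphate hydrolases, and spx1 (pqr1 in the annotation) encodes an SPX-domain protein, so the series asks how blocked inositol pyrophosphate catabolism alters the starvation response. HASX was 1 strain, and no HASX culture at 0 h and no mock transfer were analysed here, so an effect of genotype in replete medium and an altered response to starvation cannot be told apart. The asp1 allele and the deletions, that of spx1 included, occur only together here, so their parts cannot be told apart either.

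As background, snoRNAs are short nucleolar RNAs that assemble with 4 core proteins each into 2 main classes of particle. Box C/D snoRNAs mostly guide 2'-O-methylation of ribosomal RNA and box H/ACA snoRNAs mostly guide pseudouridylation, while a few, such as U14 and U17 (snR30), are needed for cleavage of the rRNA precursor. Mature snoRNAs carry no polyA tail. Their precursors can be polyadenylated, and the nuclear exosome and its cofactors trim or degrade such tailed forms. In a polyA-selected library, the amount of a snoRNA and the share of its molecules that carry a tail cannot be told apart, and in bulk RNA neither can fewer cells and less RNA per cell.

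Libraries held 11.24 M to 23.68 M counts, and members' levels are in CPM, counts per M counts of a library after TMM scaling, which corrects library sizes for differences in composition. The labels fitted the levels of ura4 and aps1. The marker gene ura4 was at 639.6 to 923 CPM in the 9 HASX libraries and at 0 in every wild-type library. At 1 h aps1 was at 179 ± 9.09 CPM in the wild type against 4.45 ± 0.693 in HASX (SD, n = 3). siw14 changed by −5.48, −6.93 and −3.28 on the log2 scale in HASX at 1, 2 and 4 h. Of the 5 engineered genes, asp1 and spx1 included, 3 were called lower in HASX at each time, where 37.8%, 39.3% and 37.3% of all genes were. Every comparison of HASX with the wild type thus also carries the difference in ura4, and its part in the results was not tested. HASX 4 h replicate 3 stood apart, with 1063 counts of siw14 against 33 and 16 in its replicates and a correlation across genes with them of 0.893 to 0.896, where other replicate pairs lay between 0.983 and 0.997. HASX 1 h replicate 2, 2 h replicate 3 and 4 h replicate 2 were highest in rRNA at their time (591.5, 371.8 and 5561 CPM, against 95.1 to 218 in the other 6 HASX libraries) and in srp7, the RNA of the signal recognition particle (248, 75.4 and 1276 CPM). The same libraries held the highest value of their group for 21 of 37, 17 of 32 and 25 of 36 detected snoRNAs. Beside results that depend on these libraries, values without them are given, and the part of rRNA carry-over in the results was not tested. Both strains are labelled h-: the summed level of 5 M-cell genes, none of them at 0, was 220 to 749 CPM in the 12 wild-type libraries and 53.8 to 92.6 in the 9 HASX libraries. The summed level of 3 P-cell genes, none of them at 0 either, was 47.6 to 88.9 CPM in the wild-type and 78.7 to 128 in the HASX libraries, and all 3 were called higher in HASX at 1 h, 0 at 2 h and 1 at 4 h. The part of mating type in the results was not tested.

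The 53 genes fall into 2 size classes with no overlap in length. There are 21 long genes of 142 to 488 nt, of which RefSeq names 19 as box H/ACA (the others are snR30, the U17 RNA, and sno16), and 32 short genes of 47 to 112 nt, of which RefSeq names none as box H/ACA. Of the 39 kept, 16 are long and 23 short. On the RNA strand, an ACA that ends 2 to 4 bases before the 3′ end, as in the box that names the H/ACA class, was found in 15 of the 21 long and 1 of the 32 short genes, against 5.215% of 7133 lncRNA genes of the same annotation. TGATGA within the first 20 bases, the core of box C, was found in 18 of the 32 short genes and 0 of the 21 long ones, against 0.421% of the lncRNAs. CTGA within the last 16 bases, box D, was found in 29 of the 32 short and 2 of the 21 long genes, against 3.449% of the lncRNAs. The size classes and motifs were chosen with results and letters known, and serve as a description.

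The sequences of the members on which the results turn are shown from RefSeq (ASM294v3), as DNA letters 5′ to 3′ on the RNA strand. The counts were made on an earlier build, so no positions are given. Capitals mark the 3 motifs above, sno20 and snR101 hold none of them, and in snR92 the last base of CTGA is the first of ACA. The first set holds long members that were higher in HASX at every time, with snR30 on chromosome I (plus strand), snR98 on I (minus), sno12 on III (plus), and sno20 and snR92 on II (plus). Of snR30, which is 326 nt long, the last 300 bases are given.
snR30: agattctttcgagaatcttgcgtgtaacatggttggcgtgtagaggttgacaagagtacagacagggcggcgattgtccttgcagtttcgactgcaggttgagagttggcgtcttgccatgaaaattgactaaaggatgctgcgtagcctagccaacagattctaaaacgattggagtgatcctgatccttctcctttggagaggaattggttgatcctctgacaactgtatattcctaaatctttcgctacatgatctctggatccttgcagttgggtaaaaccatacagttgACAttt
snR98: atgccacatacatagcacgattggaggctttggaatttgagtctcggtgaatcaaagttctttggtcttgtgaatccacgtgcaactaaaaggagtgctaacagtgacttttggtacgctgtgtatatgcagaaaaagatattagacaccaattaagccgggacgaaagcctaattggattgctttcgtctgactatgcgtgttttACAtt
sno12: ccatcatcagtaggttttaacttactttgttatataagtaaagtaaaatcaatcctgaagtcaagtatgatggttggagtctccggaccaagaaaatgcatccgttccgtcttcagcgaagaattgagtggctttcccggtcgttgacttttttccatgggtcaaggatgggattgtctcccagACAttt
sno20: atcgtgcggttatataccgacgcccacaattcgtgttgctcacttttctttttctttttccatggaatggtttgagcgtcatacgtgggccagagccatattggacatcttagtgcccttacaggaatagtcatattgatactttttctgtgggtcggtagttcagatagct
snR92: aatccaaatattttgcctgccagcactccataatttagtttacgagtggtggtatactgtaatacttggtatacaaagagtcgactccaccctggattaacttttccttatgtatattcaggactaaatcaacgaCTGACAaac
The second set holds 2 short members that lie in introns and were also higher in HASX at every time, snoR54 (chromosome II, plus strand) and snoR39b (II, minus).
snoR54: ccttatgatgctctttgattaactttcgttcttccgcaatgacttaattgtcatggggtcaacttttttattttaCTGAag
snoR39b: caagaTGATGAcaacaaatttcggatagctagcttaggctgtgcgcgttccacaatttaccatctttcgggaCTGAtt
The last set holds members that were lower in HASX, the long snR101 (I, plus) and the short sno52 (I, minus), snoR56 (I, minus) and snoU14 (II, plus).
snR101: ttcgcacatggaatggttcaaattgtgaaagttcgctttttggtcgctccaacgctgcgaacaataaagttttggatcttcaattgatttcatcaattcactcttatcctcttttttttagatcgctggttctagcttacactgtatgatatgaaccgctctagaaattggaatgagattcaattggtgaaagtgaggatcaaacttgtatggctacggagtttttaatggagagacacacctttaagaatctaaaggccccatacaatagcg
sno52: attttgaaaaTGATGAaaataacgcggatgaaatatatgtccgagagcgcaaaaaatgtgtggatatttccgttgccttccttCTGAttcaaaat
snoR56: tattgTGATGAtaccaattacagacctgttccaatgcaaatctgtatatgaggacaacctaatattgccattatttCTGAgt
snoU14: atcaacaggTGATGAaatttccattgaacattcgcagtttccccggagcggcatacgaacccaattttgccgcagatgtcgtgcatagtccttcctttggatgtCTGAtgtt

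HASX was compared with the wild type at the same time of starvation to ask how each stage of the response differed between the strains. The snoRNAs moved in both directions: of the 33 tested, 12 were higher and 9 lower in HASX at 1 h, 12 and 13 at 2 h, and 15 and 5 at 4 h. Calls are at an adjusted p under 0.05 in edgeR's quasi-likelihood test, adjusted over 6234 genes. The background is wide, since 74.2% of all genes tested were called at 1 h, 76.8% at 2 h and 75.6% at 4 h, so the share of snoRNAs called was not above that of genes in general. Of all genes, 36.4% were higher at 1 h, 37.5% at 2 h and 38.3% at 4 h, and 37.8%, 39.3% and 37.3% were lower.

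The long members were more often called higher than lower, and the short ones in both directions, more often lower at 1 and 2 h. Of 16 long members, 10, 8 and 11 were higher at 1, 2 and 4 h and 2, 5 and 2 lower, with median log2 fold changes of 1.80, 1.61 and 2.48. The higher calls of snR91 at 1 and 4 h, and of snR94 and snR96 at 4 h, each rested on 1 HASX library. Of 17 short members tested, 2, 4 and 4 were higher and 7, 8 and 3 lower, with medians of −0.88, −1.41 and 0.22. The medians over all genes were −0.01, −0.01 and 0.05, and the difference between the size classes was not tested. No member was called in opposite directions at different times. There were 10 members higher at all 3 times, 8 of them long, and 5 members lower at all 3 times, 2 of them long. The 5 members called at no time (snR70, snoR38, snoR69, snoR47 and snR88) are all short. Without the 3 HASX libraries high in rRNA, snR70 was called lower at 1 h, snoR47 lower at 1 and 2 h, and snoR38 higher at 4 h. The direction of snoR38 at 4 h depended on HASX 4 h replicate 3, without which it was called lower. These groupings over times were made after the values were seen, and the 3 comparisons share no libraries but share strains.

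**Figure D1:**
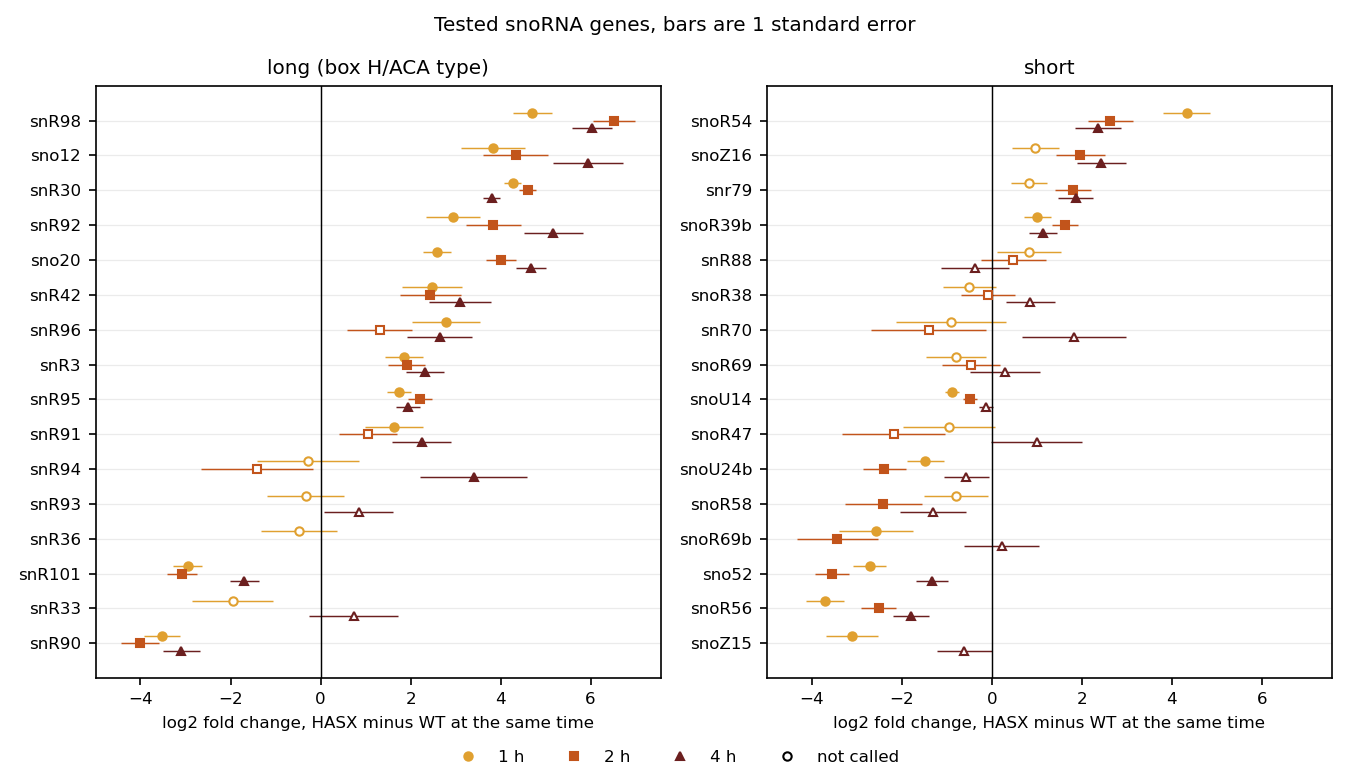
Log2 fold change of HASX over the wild type at 1, 2 and 4 h for the tested snoRNAs, with ±1 SE, for long and short members. Filled points passed an adjusted p of 0.05. Values that rest on groups with 3 or fewer counts are left out, which removes snR51b. Most long members lie above 0, led by snR98, sno12 and snR30, while snR90 and snR101 lie below 0 at every time.

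snR30 is the U17 RNA, an H/ACA snoRNA that in budding yeast is essential for making 18S rRNA. It was the most abundant member, with 68153 of all snoRNA counts. In the wild type it was at 19.7, 14.7 and 18.2 CPM at 0 h, 20.4, 19.3 and 21.6 at 1 h, 23.2, 21.8 and 17.7 at 2 h, and 40.1, 37.8 and 37.1 at 4 h. In HASX it was at 392.6, 443.7 and 347 CPM at 1 h, 437, 545 and 534 at 2 h, and 488, 709.9 and 404.5 at 4 h. Every HASX library thus lay far above every wild-type library. On the log2 scale HASX exceeded the wild type by 4.27 (SE 0.186, adjusted p = 7.43e-14), 4.60 (SE 0.188, adjusted p = 2.72e-14) and 3.80 (SE 0.180, adjusted p = 6.61e-13) by edgeR. Without the 3 HASX libraries high in rRNA the log2 fold changes were 4.19, 4.64 and 3.59. snR30 made up 16.2% to 29.5% of all snoRNA counts in a wild-type library and 56.6% to 79.6% in a HASX library.

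Among the other long members, snR98 alone rose more in proportion than snR30 at every time, from a lower level. snR98, named as a box H/ACA RNA, had 4 to 17 counts in each wild-type library, or 0.233 to 0.595 CPM as group means. In HASX it was at 9.68, 10.6 and 5.97 CPM at 1 h, 15.4, 24.3 and 25.0 at 2 h, and 16.6, 39.2 and 15.5 at 4 h. Its log2 fold changes of 4.71 (SE 0.437), 6.52 (SE 0.466) and 6.03 (SE 0.447) were the largest rises among the 33 tested members at each time (adjusted p = 7.52e-09, 1.31e-10 and 3.83e-10 by edgeR), and they were 4.57, 6.48 and 5.51 without the 3 libraries. No HASX library overlapped with the wild type at the same time.

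sno12, which RefSeq calls 12/snR99, was at 1.40, 1.54 and 1.99 CPM in wild-type libraries at 1 h and at 9.10, 53.0 and 8.73 in those of HASX. At 4 h it was at 1.45, 0.953 and 0.987 CPM in wild-type libraries and 32.3, 150.3 and 27.6 in those of HASX. Replicate 2, high in rRNA, was the highest HASX library at both times, yet every other HASX library also lay above the wild type. Expressed as log2 fold changes, the rises at 1, 2 and 4 h came to 3.83, 4.34 and 5.93 (adjusted p = 7.38e-05, 1.89e-05 and 1.13e-06 by edgeR), and 2.45, 4.19 and 4.76 without the 3 libraries. sno12 lies 3 protein-coding genes away from asp1, whose allele is marked with natMX in HASX. It is the kept member closest to an engineered locus, and the part of that locus in its change was not tested.

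sno20 (20/snR35) lies in the exon of SPBC1921.04c on the opposite strand. Its wild-type level was 2.48, 2.29 and 2.29 CPM at 1 h and 1.92, 2.06 and 1.22 at 4 h, and its HASX level 13.8, 15.5 and 13.2 at 1 h, 23.9, 27.1 and 38.2 at 2 h, and 32.2, 69.4 and 32.2 at 4 h. The replicates of HASX at 1 h lay close together, and no HASX library overlapped with the wild type. As log2 fold changes these differences were 2.59, 4.01 and 4.68 (adjusted p = 3.18e-07, 9.71e-10 and 2.43e-10 by edgeR), and 2.53, 3.87 and 4.25 without the 3 libraries. SPBC1921.04c itself held 0 or 1 counts in 20 libraries and 363 in HASX 4 h replicate 3.

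snR92, a box H/ACA RNA opposite the exon of the non-coding SPNCRNA.1487, was at 0.451, 0.585 and 0.448 CPM in the wild type at 1 h. In HASX it was at 2.96, 4.62 and 4.00 at 1 h, 4.19, 4.99 and 6.87 at 2 h, and 4.20, 20.2 and 2.95 at 4 h. The groups did not overlap, and replicate 2 stood out at 4 h. In log2 terms snR92 rose by 2.95, 3.84 and 5.17 (adjusted p = 1.82e-04, 1.26e-05 and 7.90e-07 by edgeR), and 2.82, 3.69 and 3.88 without the 3 libraries. SPNCRNA.1487 fell at 1 and 2 h, by 3.15 and 3.47 on the log2 scale, so at these times the RNAs of the opposite strands were called in opposite directions. At 4 h SPNCRNA.1487 was not called (0.53), with 1.19, 1.44 and 21.5 CPM in HASX, the last in replicate 3.

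snR95, a box H/ACA RNA next to snR30 in mean CPM over all libraries, rose in both strains. Its wild-type means were 6.35 ± 1.34, 7.24 ± 0.284, 9.61 ± 0.805 and 17.5 ± 2.07 CPM at 0, 1, 2 and 4 h, and its HASX means 24.3 ± 5.23, 44.3 ± 5.93 and 67.3 ± 35.1 at 1, 2 and 4 h (SD, n = 3). At 4 h HASX replicate 2, high in rRNA, was at 107.8 CPM, against a mean of 47.1 in its replicates. The log2 fold changes of snR95 against the wild type were 1.74, 2.20 and 1.94 (adjusted p = 6.76e-06, 2.72e-07 and 1.53e-06 by edgeR). Of the other long members higher at all 3 times, snR3 changed by 1.86, 1.91 and 2.31 (1.51 at 4 h without the 3 libraries) and snR42 by 2.48, 2.44 and 3.11 on the log2 scale. At 4 h snR42 was at 2.69, 33.4 and 3.34 CPM in HASX and at 1.37, 1.56 and 1.60 in the wild type, and without the 3 libraries its log2 fold change was 1.04. snR96 was higher at 1 h (2.78) and at 4 h (2.65), where it was at 0.554, 0.776 and 7.92 CPM in HASX, and without HASX 4 h replicate 3 its value at 4 h was 0.42 (adjusted p = 0.49) and was no longer called. snR91 (1.63 and 2.25 at 1 and 4 h) and snR94 (3.40 at 4 h) were also called higher, but the calls rested on replicate 2, the HASX library high in rRNA. Without it snR91 was at 0.59 (adjusted p = 0.405) and 1.04 (adjusted p = 0.126), and snR94 at 0.39 (adjusted p = 0.747).

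**Figure D2:**
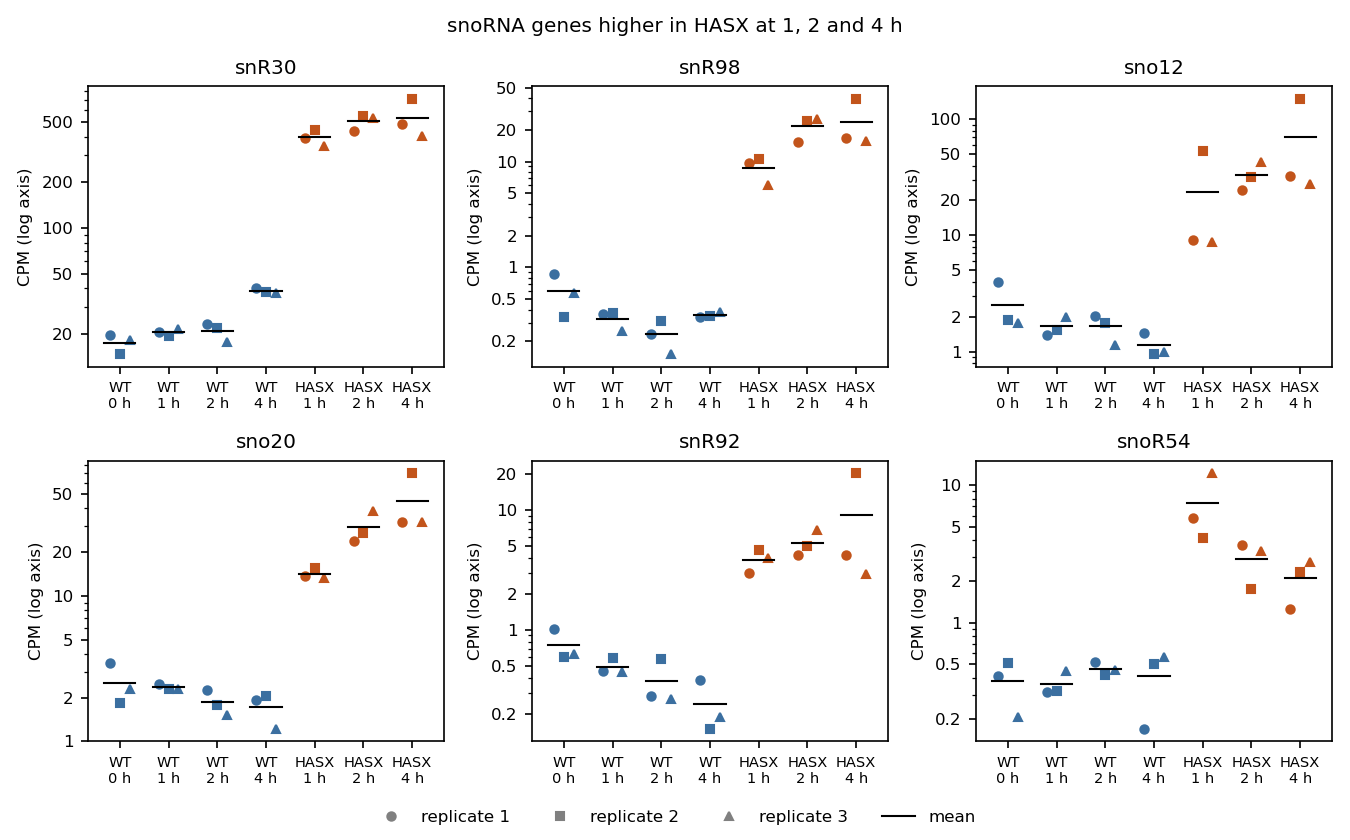
Level in CPM (log axis) in every library for 6 members that were higher in HASX at all 3 times, by group, with group means. snR30 stays between 14.7 and 40.1 CPM in wild-type libraries and between 347 and 709.9 in HASX libraries, and sno12 and snR92 have their highest library in HASX 4 h replicate 2.

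Long members could also fall. snR101 came next to snR30 among the long members in wild-type cells at 0 h, with group means of 16.1, 19.1, 16.7 and 11.3 CPM at 0, 1, 2 and 4 h. In HASX it was at 1.75, 3.45 and 2.25 CPM at 1 h, 1.98, 1.96 and 1.95 at 2 h, and 3.33, 5.88 and 1.57 at 4 h. All 9 HASX libraries lay below all 12 wild-type libraries. This was a fall, with log2 fold changes of −2.95, −3.09 and −1.69 (adjusted p = 8.98e-08, 5.36e-08 and 8.27e-05 by edgeR).

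snR90 is the longest member, at 488 nt, and partly overlaps not3, a subunit gene of the CCR4-NOT deadenylase complex, on the opposite strand. Its wild-type means were 7.68, 8.51, 9.77 and 6.49 CPM at 0, 1, 2 and 4 h. In HASX it was at 0.370, 0.587 and 1.24 CPM at 1 h, 0.441, 0.948 and 0.414 at 2 h, and 1.03, 0.887 and 0.393 at 4 h. Its log2 fold changes came to −3.52, −4.00 and −3.09 (adjusted p = 2.02e-07, 4.52e-08 and 1.72e-06 by edgeR). not3 was not called at any of these times.

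The short sno52, a C/D-like gene by its motifs, lies inside the exon of taf9, a gene for a transcription factor TFIID and SAGA subunit, on the opposite strand. It was at 4.46, 3.46 and 5.28 CPM in the wild type at 1 h and at 0.318, 0.733 and 0.957 in HASX. At 2 h it was at 0.294, 0.442 and 0.414 CPM in HASX and at 4 h at 1.19, 1.89 and 1.24, each below all wild-type libraries of that time. For sno52 the log2 fold changes stood at −2.72, −3.55 and −1.33 (adjusted p = 1.38e-06, 7.42e-08 and 1.88e-03 by edgeR). taf9 was called only at 2 h, where it was higher by 0.36.

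snoR56 was at 1.85, 2.76 and 1.94 CPM in the wild type at 1 h and held 2 to 7 counts in each HASX library. In log2 fold changes these falls were −3.71, −2.52 and −1.79 (adjusted p = 1.31e-07, 6.15e-06 and 4.07e-04 by edgeR). snR51b nearly vanished from HASX: the wild type held 34, 33 and 26 counts at 1 h, HASX 1 count in 1 of 3 libraries at 1 h and none in the 6 libraries at 2 and 4 h. Over the summed counts at 1 h, 93 against 1, the level was 76.6-fold lower in HASX (95% exact interval 13.4 to 3060, counting error only). Against a floor of 3 counts per library it was at least 8.28-fold lower at 2 h and at least 2.30-fold lower at 4 h. Without the 3 HASX libraries high in rRNA, the log2 fold changes of snR90 were −3.39, −3.70 and −3.16 and those of snR101 −3.24 at 1 h and −2.17 at 4 h.

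**Figure D3:**
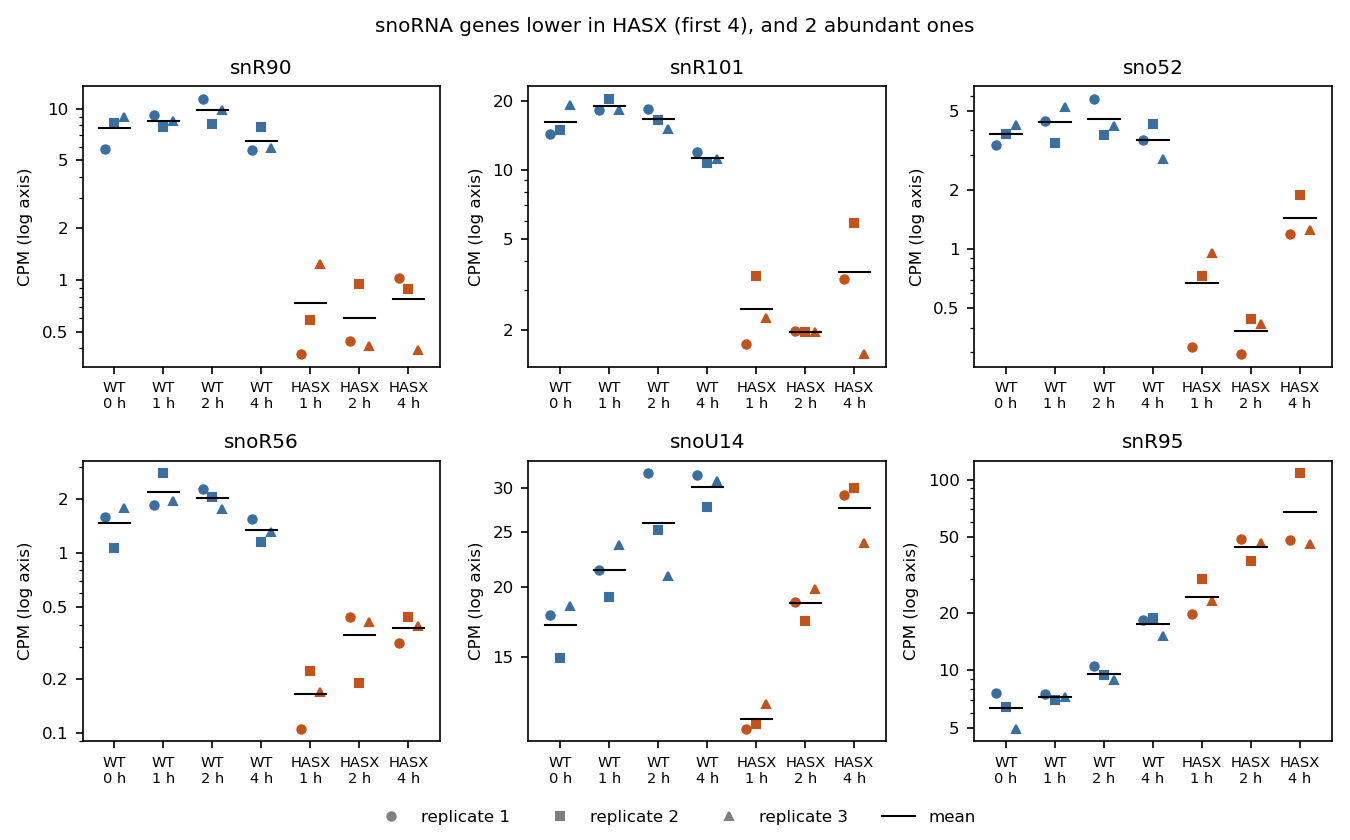
Level in CPM (log axis) in every library for 4 members that were lower in HASX at all 3 times (snR90, snR101, sno52 and snoR56) and for snoU14 and snR95. The HASX libraries of the first 4 lie below the wild-type libraries of the same time, while snoU14 rises with time in both strains and snR95 is higher in HASX.

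U14 (snoU14) is a box C/D snoRNA that in budding yeast is essential for 18S rRNA processing. It was the most abundant short member and behaved unlike snR30. At 0 h in the wild type it was at 17.8, 14.9 and 18.5 CPM, at 1 h at 21.4, 19.1 and 23.7, at 2 h at 31.8, 25.2 and 20.9, and at 4 h at 31.6, 27.7 and 30.9. In HASX it was at 11.2, 11.4 and 12.3 CPM at 1 h, 18.8, 17.4 and 19.8 at 2 h, and 29.2, 30.0 and 23.9 at 4 h. HASX thus lay below the wild type at 1 h and 2 h and overlapped with it at 4 h. U14 was lower by log2 fold changes of −0.88 (SE 0.156, adjusted p = 4.31e-05) and −0.48 (SE 0.154, adjusted p = 8.83e-03) at 1 and 2 h by edgeR, and U14 was not called at 4 h. The call at 2 h was lost when library sizes were scaled on protein-coding genes alone (−0.31, adjusted p = 0.0638) or without WT 2 h replicate 1 (−0.31, adjusted p = 0.0718).

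Because a longer RNA can collect more counts, levels of different members were compared per kilobase of RefSeq length. The length of the tailed RNAs counted was not measured and may differ, so the order holds for annotated lengths only. At 0 h in the wild type the order was snoU14 at 152 CPM per kb, snR101 at 59.1, snR30 at 53.8, sno52 at 40.4 and snR95 at 28.6. In HASX at 1 h snR30 was at 1210 ± 148 CPM per kb, snR95 at 109 ± 23.6, snoU14 at 104 ± 5.56, snoR54 at 90.9 ± 52.4 and sno20 at 82.4 ± 7.05 (SD, n = 3), and below snR30 neighbours in this order did not differ beyond their spread. The mean of sno12, 124 ± 134 CPM per kb, rested on replicate 2, and without it sno12 was at 46.9, below snoR54 (111), snoU14 (105), snR95 (96.3) and sno20 (78.5). The summed CPM of all members rose from 100 ± 8.29 in the wild type at 0 h to 131 ± 4.79 at 4 h, and was 526 ± 87.4, 696 ± 76.4 and 851 ± 350 in HASX at 1, 2 and 4 h (SD, n = 3). Most of that difference was snR30. In HASX at 4 h the sum was 1253 CPM in replicate 2, high in rRNA, and 683.6 and 616.5 in its replicates. The sum of long members without snR30 was 45.2 to 47.5 CPM as wild-type group means, and 74.5, 151 and 75.2 CPM in the 3 HASX libraries at 1 h. The sum of short members at 1 h was 43.0 ± 3.43 CPM for wild-type and 31.6 ± 5.67 for HASX libraries, and at 4 h 47.4 ± 1.21 against 57.8 ± 11.4.

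**Figure D4:**
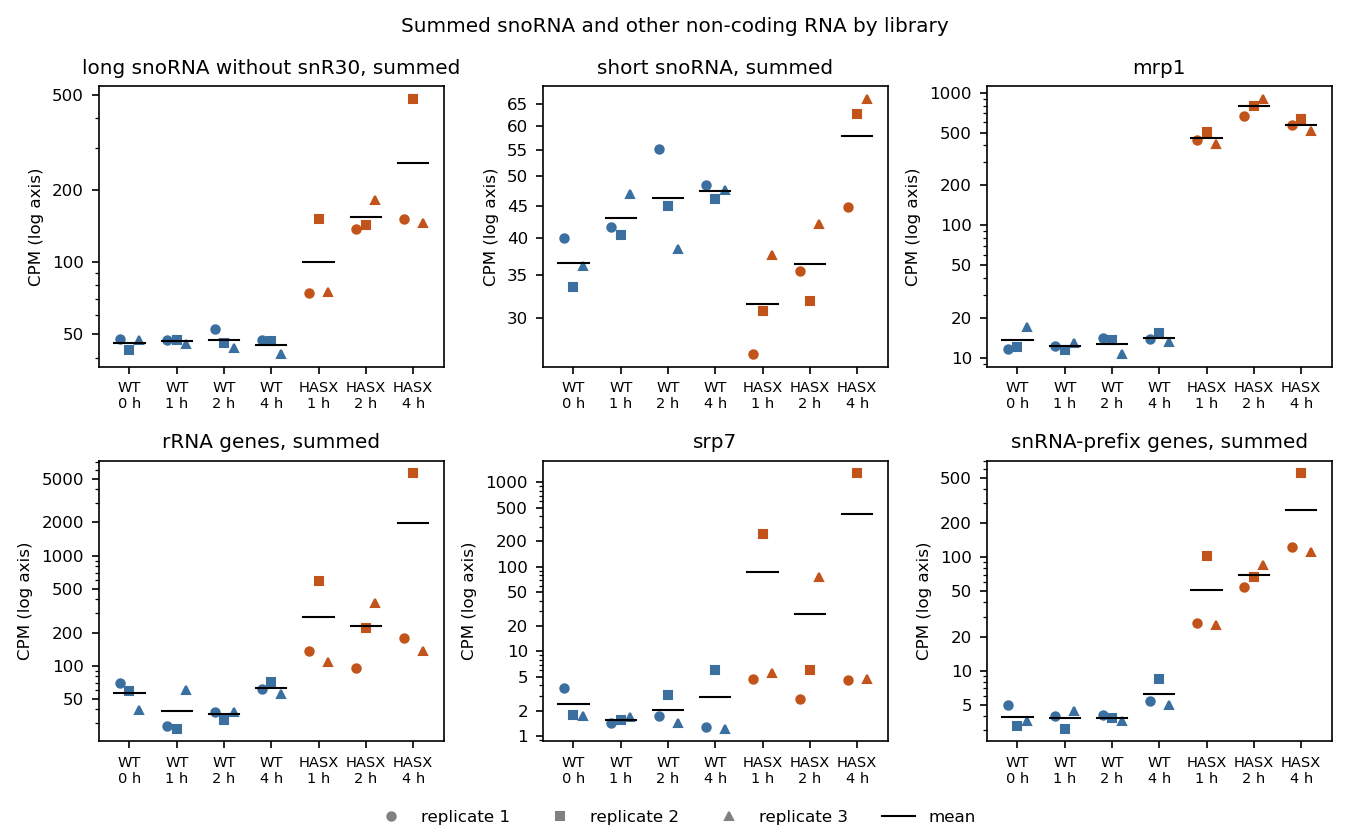
Summed CPM (log axis) per library for long snoRNAs without snR30, short snoRNAs, the RNase MRP RNA mrp1, rRNA, srp7 and genes with the snRNA prefix. Short snoRNAs stay between 26.4 and 66.1 CPM in all libraries, while rRNA and srp7 reach 5561 and 1276 CPM in HASX 4 h replicate 2.

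There are 10 members in introns of protein-coding genes on the same strand. Intronic snoRNAs are usually released from the spliced intron of the host transcript. Whether the counts of these members came from released snoRNA or from host RNA that still held the intron was not tested. All 7 of these that passed the filter are short. The guanine-nucleotide synthesis gene gua1, an IMP dehydrogenase gene, hosts snoR54. snoR54 was at 0.316, 0.319 and 0.448 CPM in the wild type at 1 h (6 to 9 counts), and at 5.82, 4.11 and 12.2 in HASX at 1 h, 3.67, 1.77 and 3.32 at 2 h, and 1.27, 2.33 and 2.75 at 4 h. Its HASX level was thus highest at 1 h and did not overlap with the wild type at any time. As log2 fold changes, snoR54 was higher by 4.33, 2.63 and 2.36 (adjusted p = 3.41e-07, 7.74e-05 and 3.52e-04 by edgeR), while those of gua1 were 0.86, 0.10 (not called) and 0.46.

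The pair of snoR39b and rpl701 moved in opposite directions at all 3 times. rpl701 encodes a ribosomal protein of the large subunit and fell by 2.61, 3.15 and 2.21 on the log2 scale in HASX, from 2653 ± 22.1 to 435 ± 22.9 CPM at 1 h (SD, n = 3). snoR39b was at 1.31, 1.44 and 1.44 CPM in wild-type libraries and at 2.17, 3.30 and 2.98 in those of HASX at 1 h. Its log2 fold changes were 1.01, 1.63 and 1.14 (adjusted p = 5.03e-03, 5.28e-05 and 2.13e-03 by edgeR). snoR39b and rpl701, and the other members and hosts that stand outside the rule for named genes (snR3, snR91, snR94, snR33, snR36, snR51b, snR93, snoZ15, snoZ16, snoU24b, snoR47, snoR58, snoR69b and the spanning transcripts of unseen members), were named after their values were seen.

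Other intronic members fell with their hosts or were not called. snoU24b changed by −1.48 and −2.39 at 1 and 2 h and was not called at 4 h (−0.56), while its host cpc2, the gene of the ribosome-bound RACK1 protein, changed by −2.83, −3.06 and −1.86. snoZ15 changed by −3.10 at 1 h, was at least 6.54-fold lower at 2 h where HASX held 0 counts, and was not called at 4 h, and its host pfd1, a prefoldin subunit gene, changed by −3.41, −2.86 and −1.25. snoR58 was called at 2 h alone (−2.41), while its host ade4, of purine synthesis, fell by 2.40, 2.46 and 1.12. snoR38 and snoR47 were called at no time, while their hosts SPAC29A4.02c and fta3 were lower at 1 and 2 h (−1.81 and −1.24, and −1.29 and −0.56).

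**Figure D5:**
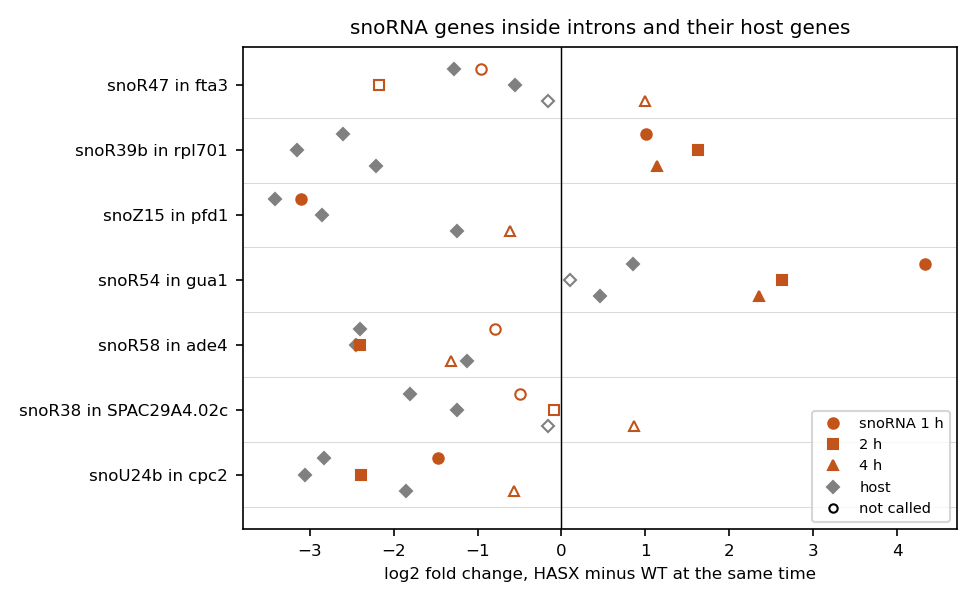
Log2 fold change of 7 intronic snoRNAs and of their host genes for HASX over the wild type at 1, 2 and 4 h. Values resting on groups with 3 or fewer counts are left out. snoR39b lies above 0 and its host rpl701 below 0 at each time, while snoU24b and snoZ15 lie on the same side as their hosts.

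The remaining short members changed less evenly. snoZ16 was higher at 2 h (1.96) and 4 h (2.43), where its highest library, at 11.1 CPM, was HASX 4 h replicate 3 (2.22 and 3.00 CPM in the others), and without it the value at 4 h was 1.38. snr79, inside the exon of gpi12 on the opposite strand, was higher at 2 h (1.81) and 4 h (1.87), and gpi12, a gene of GPI anchor synthesis, was higher by 0.42 at 2 h and not called at 4 h. snoR69b was lower at 1 h (−2.57) and 2 h (−3.43), and its highest HASX library at 1 h, at 0.733 CPM, was replicate 2. Among long members of few counts, snR33 was at least 3.38-fold lower at 2 h, with 0 HASX counts, snR36 was 13.2-fold lower (95% exact interval 2.1 to 548) and snR93 14.9-fold lower (3.89 to 127), from 1 and 2 HASX counts.

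The wild type was compared with 0 h to follow the members through starvation itself. At 1 h none of 33 was called by edgeR, where 9.29% of all genes were, 4.27% higher and 5.02% lower, and 1 was higher and 0 lower at an unadjusted p under 0.05. DESeq2 called none either. At 2 h snoU14 alone was higher (0.61, SE 0.154, adjusted p = 0.0123 by edgeR; 0.52 and 0.43, not called, without WT 0 h replicate 2 or WT 2 h replicate 1), where 17.6% of genes were called, 10.9% higher and 6.66% lower, and none was lower by edgeR or by DESeq2, with 4 lower at an unadjusted p under 0.05. At 4 h 4 members were higher and 5 lower, where 51.5% of genes were called, 26.5% higher and 25.0% lower.

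The members that rose in the wild type at 4 h include the most abundant ones. snR30 changed by 1.13 (SE 0.171, adjusted p = 2.02e-05), snR95 by 1.46 (SE 0.263, adjusted p = 1.41e-04) and snoU14 by 0.82 (SE 0.154, adjusted p = 2.15e-04) on the log2 scale by edgeR. Their 4 h libraries lay above their 0 h libraries without overlap. snoR38 changed by 2.01 (adjusted p = 7.86e-03), from 0.973, 0.812 and 0.782 CPM at 0 h to 3.16, 3.61 and 3.62 at 4 h, while its host fell by 0.83. The lower members were snR33 (−2.87), snoU24b (−1.99, adjusted p = 4.90e-04), snR92 (−1.59, adjusted p = 0.0480 by edgeR), snoZ15 (−1.38) and snR51b (−1.15). The hosts of snoU24b and snoZ15 fell too, by 1.48 and 1.24. The 5 lower calls became 2 without WT 0 h replicate 1 or WT 4 h replicate 3, 3 without any 1 of the other 4 wild-type libraries of 0 h and 4 h, 3 with DESeq2, 8 without HASX 4 h replicate 3, and 9 with a model of only the compared groups.

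Within HASX, 4 h was compared with 1 h. Of the 33 members, 9 were higher and 1 lower, where 44.8% of all genes were called, 25.6% higher and 19.2% lower. sno20 rose by 1.65 (adjusted p = 1.48e-04) and snoU14 by 1.25 (SE 0.158, adjusted p = 3.93e-06) by edgeR. snR95 (1.47), snr79 (1.47), snR98 (1.44), sno52 (1.09) and snR30 (0.44, adjusted p = 0.0329) rose too, and the calls of sno52 and snR30 were lost without the 3 libraries high in rRNA (0.93 and 0.28, adjusted p = 0.119 and 0.158). snoR38 (2.26) and sno12 (1.57) were also called, but each rested on 1 library: without HASX 4 h replicate 3 snoR38 was at 0.63 (adjusted p = 0.174), and without HASX 4 h replicate 2 sno12 was at 0.34 (adjusted p = 0.652). In a model of only the compared groups, 3 members were called higher. snoR54 alone fell (−1.80, adjusted p = 3.65e-03). Without HASX 4 h replicate 1, 14 members were higher.

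Whether the change from 1 to 4 h differed between the strains was tested as an interaction. It was called positive for 7 members and negative for 1, where 44.1% of all genes were called, 22.4% positive and 21.7% negative. Among the called members with a mean of at least 1 CPM, the largest positive value was that of snR92 (2.22), followed by sno20 (2.09, SE 0.429, adjusted p = 6.45e-04), snoR56 (1.92), sno52 (1.38), snR101 (1.26) and snoU14 (0.76). For snoR56, sno52 and snR101, whose level was lower in HASX at every time, the positive value means that the gap narrowed from 1 to 4 h. For snoR54 it was negative (−1.97, adjusted p = 0.0309), from a rise that was largest at 1 h. Without HASX 4 h replicate 2, snR92 was at 0.89 (adjusted p = 0.248) and snR101 at 0.74 (adjusted p = 0.118). The number of positive calls was 3 without HASX 1 h replicate 1, 12 without HASX 1 h replicate 2, 4 without HASX 4 h replicate 2 and 11 without HASX 4 h replicate 3.

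The genes for the proteins that hold, build and trim snoRNAs were read from lists chosen with earlier results known. All 4 genes of the H/ACA core were lower in HASX at 1 and 2 h and 3 of 4 at 4 h, with median log2 fold changes of −2.53, −2.15 and −1.16. The shares of all genes called lower were 37.8%, 39.3% and 37.3%. gar1 fell from 550.4 to 58.2 CPM at 1 h (−3.24, adjusted p = 4.21e-14 by edgeR) and remained lower at 2 and 4 h (−2.98 and −1.75). nop10 changed by −2.97, −2.64 and −1.71, and cbf5, the pseudouridine synthase, by −2.10, −1.67 and −0.60. nhp2 was lower at 1 h (−1.81) and 2 h (−0.76) and was not called at 4 h (0.17).

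All 4 genes of the C/D core were lower at 1 and 2 h and 3 of 4 at 4 h, with medians of −1.37, −0.90 and −0.53. These counts stand beside 37.8%, 39.3% and 37.3% of all genes called lower. snu13 changed by −2.27, −1.70 and −0.81, nop58 by −1.38, −0.96 and −0.52, and nop56 by −1.37, −0.83 and −0.54. The methyltransferase gene fib1 was lower at 1 h (−0.97) and 2 h (−0.83) and was not called at 4 h. Both cores also fell in the wild type at 4 h against 0 h, by medians of −1.30 for the H/ACA and −1.02 for the C/D genes, with 4 of 4 called in each. In that comparison 25.0% of all genes were lower.

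Of 22 nuclear exosome genes and cofactors, 19, 12 and 8 were lower in HASX at 1, 2 and 4 h and 0, 2 and 2 higher, with medians of −1.04, −0.56 and −0.33. Of all genes 37.8%, 39.3% and 37.3% were lower, so the share at 4 h was close to that of genes in general. The exosome cap gene rrp4 went from 39.8 to 7.35 CPM at 1 h and changed by −2.44, −2.25 and −1.92. The polyA-binding protein gene pab2, which acts with the exosome on snoRNA precursors in this species, changed by −1.53, −1.04 and −1.15. The exonuclease gene rrp6 was lower at 1 h (−1.31) and not called at 2 and 4 h. rrp43, of the exosome core, changed by −1.70, −2.22 and −1.44. The cofactor genes mpp6 (−2.25) and cti1 (−2.22) fell at 1 h.

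Of 17 genes of snoRNA 3' end formation, 5, 3 and 5 were higher and 5, 6 and 6 lower at the 3 times, with medians of 0.06, −0.10 and −0.13. These shares were below those of all genes in both directions (36.4%, 37.5% and 38.3% higher, and 37.8%, 39.3% and 37.3% lower). The RNase III gene pac1, whose enzyme cuts snoRNA precursors, went from 55.7 to 8.47 CPM at 1 h and was lower at every time (−2.72 at 1 h and −1.86 at 2 h). The phosphatase gene dis2 changed by −1.97, −2.10 and −1.68, the helicase gene sen1 by −1.63, −1.25 and −0.45 (−0.24 at 4 h, not called, without the 3 libraries high in rRNA), and the La protein gene sla1 by −2.16 at 1 h. The termination factor gene seb1 was higher at 4 h alone (1.02). pcf11 was called higher at 4 h (1.45), where HASX replicate 3 was at 344 CPM and the other HASX replicates at 34, and without replicate 3 it was called lower (−0.53, adjusted p = 6.73e-05 by edgeR). Of 8 snoRNP assembly factors found in the files, 1, 2 and 2 were higher and 4, 2 and 2 lower, with medians of −0.36, 0.10 and 0.10. hit1 was lower at each time (−1.10, −1.10 and −1.17), the cap methyltransferase gene tgs1 went from higher at 1 h (0.80) to lower at 4 h (−1.29), and shq1 was higher at 2 h (1.00) and 4 h (1.03, and 0.34, not called, without HASX 4 h replicate 3).

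Stable RNAs outside the SPSNORNA identifiers rose as well. The RNase MRP RNA mrp1, which takes part in rRNA cleavage, went from 12.2 to 452 CPM at 1 h, from 12.8 to 787 at 2 h and from 14.2 to 573 at 4 h, with log2 fold changes of 5.21, 5.94 and 5.33 (adjusted p = 1.43e-15 at 1 h by edgeR). The RNase P RNA rrk1 went from 6.39 to 90.4 CPM at 1 h (3.82, 4.60 and 4.06). The U3 genes, counted under the snRNA prefix, rose too, snu32 by 3.89, 5.08 and 5.93 and snu3 by 3.04, 2.76 and 4.99. snu3 was at 3.02, 29.2 and 3.04 CPM in HASX at 1 h and 22.8, 151.5 and 20.4 at 4 h, with replicate 2 far above the others. Without the 3 libraries high in rRNA snu3 was still called higher (1.12, 2.44 and 3.45), as was snu32 (3.51, 5.01 and 5.11 on the log2 scale). The telomerase RNA ter1, whose precursor is polyadenylated, was not called at 1 h (0.10) and was lower at 2 h (−0.70) and 4 h (−0.91). Of these 6 stable RNAs, srp7 included, 5, 4 and 5 were higher and 0, 1 and 1 lower, with medians of 3.85, 4.20 and 5.16. Over all genes, 36.4%, 37.5% and 38.3% were higher and 37.8%, 39.3% and 37.3% lower. The value of srp7 rested on the libraries high in rRNA, since it was at 4.76, 248 and 5.57 CPM in HASX at 1 h and 4.59, 1276 and 4.78 at 4 h. Without those libraries srp7 was at 1.74 (adjusted p = 0.0167 by edgeR), 1.17 and 0.76, called at 1 h alone, and of the 6 RNAs 5, 4 and 4 were higher and 0, 1 and 1 lower, with medians of 2.62, 3.52 and 3.59. mrp1 then stood at 5.13, 5.92 and 5.30.

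Members with few or no counts complete the set. The 6 kept but not tested held 18 to 61 counts over all libraries (snR40 56, snR41 43, snoR02 61, snoR54b 18, snoU18 37 and snoR39a 29). Of the 14 under 10 counts, snoU24 held 6, snR46 7, and snr62 and snR5 2 each, and 10 held 0. With all 39 kept members tested and no low-count filter, 12 were higher and 11 lower at 1 h, 13 and 15 at 2 h, and 18 and 6 at 4 h. The shares of all genes called without that filter were not computed, so these counts have no background beside them. All 8 members that lie inside an exon of another counted gene on the same strand were at 0: snoZ8, snoZ7, snoZ5, snoZ4 and snoZ3 in the snoZ transcript, snoZ30 in SPNCRNA.1483, snoR68 in SPNCRNA.1650 and snR97 in SPNCRNA.617. The other 2 at 0, sno16 and snR10, overlap no counted gene. How reads in overlapping genes were assigned is not given in the sources used here. Of the transcripts that span them, SPNCRNA.617 was higher in HASX (2.59, 3.53 and 2.25), SPNCRNA.1483 was lower (−2.88, −2.66 and −2.71), and SPNCRNA.1650 and snoZ were called at 4 h alone (1.40 and 1.85). snoZ was at 1.82, 0.666 and 10.5 CPM in HASX at 4 h, and without replicate 3 it was at 0.13 and not called at 4 h and at 1.03 and called at 2 h. By contrast, the 5 members inside an exon on the opposite strand held 61 to 4164 counts. The strand setting of the counting is not given, so counts of opposite-strand pairs cannot be told apart with certainty.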

How the data were processed

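Per the labels, polyA RNA was prepared by hot acid phenol extraction, and paired-end libraries came from a TruSeq kit for stranded mRNA. The submitters' processing notes name HISAT2 2.1.0, SAMtools, HTSeq 0.10.0 and DESeq2 with genome build ASM294v2, without roles, order or settings, and how strands were treated in counting is not given in the sources used here. The deposited count tables hold 1 whole-number count per gene and library, for the wild type and HASX separately. The 6 deposited tables of the authors' own comparisons were not used. Identifiers were matched to RefSeq ASM294v3 for names, strand, overlaps and sequence (6836 by locus tag, 12 by synonym, 140 not matched).

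Counts of 21 libraries were joined and fitted in R 4.3.3 with edgeR 4.0.16: filterByExpr (6234 genes kept, 754 removed), TMM scaling, and glmQLFit and glmQLFTest with 1 mean per group (14 residual degrees of freedom, common biological coefficient of variation 0.212). P-values were adjusted by Benjamini-Hochberg over the 6234 genes, and a call is an adjusted p under 0.05 with no minimum fold. A standard error is the log2 fold change divided by the square root of its F statistic. A member that passed the filter only through its high group had to differ, so all kept members were also tested without it. Levels are CPM on TMM-scaled library sizes. Of the tested members, 12 had a mean under 1 CPM. Where a group held 3 or fewer counts in all, no fitted fold is given: the ratio of summed levels has an exact 95% interval, and a group at 0 is set to a floor of 3 counts per library. Intervals and floors cover counting error only, since reads carry no molecular identifiers.

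Named genes are the 8 members with the highest mean CPM, up to 6 higher and 6 lower members per comparison by fold (called, at least 1 CPM on average, groups not overlapping), up to 3 called genes per list and comparison, and genes that overlap these members. The members and lists were chosen with earlier results of these data known, so their direction is no independent evidence. Replicates are labelled as biological, with no word on separate starting cultures, so p-values measure the spread between these samples. Comparisons share groups. Alternatives were DESeq2 1.42.0, its size factors, TMM on protein-coding genes, no filter, only the groups compared, a replicate block and leaving out each library. The removal of the 3 HASX libraries highest in rRNA, and of HASX 4 h replicate 3 in comparisons without it, was added after seeing the data. The pipeline was tested on simulated counts.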

Additional observations from a re-analysis of the deposited data

Results flagged for a closer look

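For 8 snoRNAs the change from 1 to 4 h without phosphate differed between HASX and the wild type by edgeR's test of the difference itself. The values are the log2 change in HASX minus that in the wild type. The difference was 2.09 for sno20 (SE 0.429, adjusted p = 6.45e-04), 0.76 for snoU14 (SE 0.219, adjusted p = 8.60e-03) and 1.92 for snoR56 (SE 0.584, adjusted p = 0.0123). It was 2.49 for snoZ15 (SE 0.864, adjusted p = 0.0273), whose mean level was under 1 CPM, and 1.26 for snR101 (SE 0.439, adjusted p = 0.0262). It was 1.38 for sno52 (SE 0.494, adjusted p = 0.0293), 2.22 for snR92 (SE 0.854, adjusted p = 0.0418) and −1.97 for snoR54 (SE 0.711, adjusted p = 0.0309). Of all genes, 44.1% passed the same test. The calls of sno20 and snoU14 held in every alternative run, that of snoR56 in all but DESeq2 (1.99, adjusted p = 0.0591), and the other 5 were lost in at least 4 alternatives each. Without HASX 4 h replicate 2, which was high in rRNA, snR92 was at 0.89 (adjusted p = 0.248) and snR101 at 0.74 (adjusted p = 0.118), and their part in the result was not tested further.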

How the results depend on the processing

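Over 8 comparisons the 33 members gave 94 calls, of which 70 kept their direction and call in every alternative run. The counts for HASX against the wild type moved by less than 1.5 times in each alternative. They ranged over left-out libraries from 11 to 13 higher and 9 to 11 lower at 1 h, 12 to 13 and 11 to 14 at 2 h, and 14 to 17 and 5 to 6 at 4 h. Left-out libraries gave 0 to 1 higher and 0 to 0 lower for the wild type at 1 h (1 higher without HASX 4 h replicate 3), 0 to 1 and 0 to 3 at 2 h, and 4 to 4 and 2 to 8 at 4 h. They gave 6 to 14 higher and 1 to 3 lower for HASX 4 h against 1 h, and 3 to 12 positive and 0 to 3 negative for the interaction. At 2 h in the wild type 0 were higher without WT 0 h replicate 2 or WT 2 h replicate 1, 1 was lower without WT 0 h or WT 2 h replicate 3, and 3 were lower without that of HASX at 4 h. The negative interaction count was 0 without WT 1 h replicate 1 or 2, WT 4 h replicate 2 or 3, HASX 1 h replicate 3 or HASX 4 h replicate 1, 3 without HASX 4 h replicate 2 and 2 without HASX 4 h replicate 3. HASX 4 h against 1 h had 3 and 2 lower without HASX 4 h replicates 2 and 3. In a model of only the compared groups there was 1 higher and 1 lower member in the wild type at 1 h, 0 higher and 1 lower at 2 h and 9 lower at 4 h, 3 higher for HASX 4 h against 1 h, and 4 positive and 0 negative interactions. DESeq2 called 3 lower in the wild type at 4 h. Without the 3 HASX libraries high in rRNA, 2 and 9 were lower in the wild type at 2 and 4 h, 2 were lower for HASX 4 h against 1 h and 2 interactions were negative. The causes of these shifts were not tested.

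In 5 cases a value that was not called changed sign and was called. Over left-out libraries snoR38 at 4 h against the wild type ranged from −0.77 (without HASX 4 h replicate 3) to 1.28, and for HASX 4 h against 1 h snR42 ranged from −1.55 (without HASX 4 h replicate 2) to 1.07 and snR96 from −1.71 (without HASX 4 h replicate 3) to 1.00. The interaction of snR42 ranged from −1.47 (without HASX 4 h replicate 2) to 1.15. Without the 3 libraries high in rRNA, snR42 for HASX 4 h against 1 h was at −1.04. With a replicate block, 11 were higher at 1 h and 14 at 4 h in HASX and 6 interactions were positive. The block moved no count by over 1.5 times. Deviations of same-numbered samples from their group means correlated at −0.656 to 0.189, and in 0 of 7 comparisons were all pairs over 0.1. With 3 libraries per group, such values cannot show whether replicate numbers mark paired samples. Depth limits the 12 tested members under 1 CPM, whose values rest on few counts. Of the 10 members at 0, 8 lie inside exons of other counted genes on the same strand.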

Other observations

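The levels of the other RNA classes in the same libraries are given as values. Genes with the snRNA prefix summed to 3.25 to 8.38 CPM in the 12 wild-type libraries and 25.1 to 547 CPM in the 9 HASX libraries. The highest sum was that of HASX 4 h replicate 2, high in rRNA, and its replicates were at 123.7 and 112.1 CPM. The class includes the U3 genes, and snu32 and snu3 held 257.3 and 151.5 CPM of the sum in replicate 2. Within that class the U4 RNA snu4, a splicing RNA, held 1 to 12 counts in each wild-type library and 86 to 171 in each HASX library, with log2 fold changes of 4.01, 4.67 and 4.88 at 1, 2 and 4 h (adjusted p = 9.58e-08, 1.29e-08 and 1.49e-08 by edgeR). snu4 was named after its values were seen. Its HASX group means of 6.89 ± 1.00, 9.72 ± 1.18 and 8.46 ± 1.01 CPM (SD, n = 3) spread little between replicates, including the replicates high in rRNA. tRNA genes summed to 2.61 to 6.39 CPM in the wild-type libraries and 3.67 to 13.9 CPM in the HASX libraries.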
